A study of Mus musculus with 17 samples.

Results

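The 72 genes described here encode the subunits of respiratory chain complexes I to IV, cytochrome c, and the assembly factors and isoforms that share their gene symbols. They were chosen by symbol alone from the 17097 genes that the array annotation names: every gene whose symbol begins with Nduf, Uqcr, Cox4, Cox5, Cox6, Cox7 or Cox8, and Sdha, Sdhb, Sdhc, Sdhd, Cycs and Cyc1. The 17 samples, 1 Affymetrix mouse array each, form 5 groups. Each leukemia arose in irradiated recipient mice (4 to 8 weeks old, 4.5 to 6 Gy) given cells of C57/Bl6 CD45.2 wildtype donors that had been transformed with Myc and Bcl2, and all were labelled as myeloid leukemia. The transformed cells were DN2 cells (early T-cell progenitors of the thymus, 5 arrays, called DN2 leukemia), LSK cells (a marrow population enriched for stem cells, 3 arrays, LSK leukemia) or granulocyte-macrophage progenitors (GMP, 5 arrays, GMP leukemia). The design describes all 13 as splenocytes sorted for CD11b and Gr1 and against CD3, CD4 and CD8. The healthy groups are DN2 cells of the thymus (2 arrays, healthy DN2) and GMP of the bone marrow (2 arrays, healthy GMP), also C57/Bl6 wildtype and not described as transformed. The healthy cells come from other tissues than the spleen, so tissue and disease state cannot be told apart in a comparison of leukemia with healthy cells. Nothing in the labels says that replicates are separate mice, so each p-value measures the spread between these samples. In these bulk samples fewer cells of a type and less RNA per cell cannot be told apart.

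Several arrays stood apart from their labels. Mycn, a Myc family gene, was at 12.82, 4.91 and 4.22 in the 3 LSK leukemia arrays. It was at 11.58 to 12.10 in DN2 leukemia and 12.06 to 13.15 in GMP leukemia. Its levels were 4.21 and 4.52 in healthy DN2 and 3.96 and 4.58 in healthy GMP, so LSK leukemia arrays 2 and 3 were near the healthy level. Myc itself was lower in every leukemia array, at 5.48 to 6.49, than in the healthy arrays, at 10.10 to 10.65. Bcl2 was at 11.30, 6.75 and 5.27 in the 3 LSK leukemia arrays. The T-cell marker list (7 of 8 genes measured) averaged 9.82 to 10.37 in DN2 leukemia, 4.19 to 4.84 in LSK leukemia, 4.23 to 4.57 in GMP leukemia, 7.98 to 8.09 in healthy DN2 and 3.91 to 4.05 in healthy GMP. Itgam, which encodes CD11b, was at 7.17, 3.47, 7.38, 3.24 and 3.42 in DN2 leukemia, so 3 of the 5 arrays were low for a marker of the sort. The neutrophil list was near background in all 5, at 3.50 to 4.30. The natural killer cell list averaged 9.43 to 11.49 in DN2 leukemia and at most 7.95 in any other array. The monocyte list was highest in LSK leukemia arrays 2 and 3, at 10.79 in each. LSK leukemia array 1, at 7.95, was below both healthy GMP arrays, at 8.62 and 8.295. Member results against LSK leukemia are therefore also given without its arrays 2 and 3. Those of DN2 leukemia are also given without arrays 1 and 3, which were high for Itgam, so only arrays low for it remain. The lists of related pathways are given with all arrays only. All values are log2 expression levels or log2 differences, an array's median over all probe sets was 3.80 to 3.86, and signals near that level are background. Precision is limited by how many arrays each group has.

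The respiratory chain passes electrons from NADH (complex I) and succinate (complex II) through ubiquinone to complex III, then through cytochrome c to complex IV, which reduces oxygen. Complexes I, III and IV pump protons across the inner mitochondrial membrane, and ATP synthase uses the gradient. Most subunits are encoded in the nucleus and must be assembled, by dedicated chaperones, with a few encoded in mitochondrial DNA that are outside the rule used here. Some complex IV subunits have isoforms made mainly in muscle, lung or testis.

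The 72 genes comprised 6 core subunits, 26 accessory subunits and 7 assembly factors of complex I, 4 subunits of complex II, 8 of complex III, cytochrome c, 10 common subunits of complex IV and 9 genes for complex IV isoforms or relatives. The remaining entry, Ndufs5-ps, is annotated as a pseudogene, and a probe set for it may also read Ndufs5, so its values are uncertain. Testing was limited to genes with at least 1 group mean above 3.83, the median over the whole table, and 69 of the 72 passed. The exceptions were Cox4i2, Cox7b2 and Ndufa4l2, whose group means lay between 3.04 and 3.54. A difference was called at an adjusted p under 0.05 from limma, over all 11625 genes tested.

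The shares of all genes called set the scale for the member counts. In DN2 leukemia minus LSK leukemia 16 members rose and 2 fell, when 28.4% of all genes tested rose and 19.1% fell. In LSK leukemia minus GMP leukemia 0 rose and 15 fell by limma, with 27 at an unadjusted p under 0.05, when 10.3% of all genes rose and 16.5% fell. In DN2 leukemia minus GMP leukemia 4 rose and 7 fell, when 21.0% of all genes rose and 18.8% fell. The arrays of the 2 groups did not overlap for 27, 13 and 4 of the 69 members in these 3 comparisons, against 42.0%, 23.9% and 28.1% of all genes tested.

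Healthy GMP had the highest group mean for 56 of the 69 tested members (81.2%), against 25.3% of all genes tested. LSK leukemia had the lowest for 43 (62.3%), against 32.9% of all genes. The median member deviated from its mean over the 5 groups by -0.20 to 0.05 in the DN2 leukemia arrays, -0.32 to -0.26 in LSK leukemia, -0.48 to 0.32 in GMP leukemia, -0.04 to 0.04 in healthy DN2 and 0.39 to 0.49 in healthy GMP. GMP leukemia was the group with the widest spread. The median SD over the members was 0.37 there, against 0.19 in DN2 leukemia and 0.14 in LSK leukemia, while over all genes tested it was 0.32, 0.27 and 0.33 in the same 3 groups. GMP leukemia array 1 had the lowest value of its group for 57 of the 69 members (33.4% of all genes tested). Arrays 4 and 2 had the highest for 43 and 21 members (28.9% and 21.9% of all genes tested). The promyelocyte marker list (5 of 5 genes) was also split in that group, with means of 12.67 and 12.66 in arrays 2 and 4 against 9.66, 8.59 and 9.07 in arrays 1, 3 and 5. The part of that difference in the member levels was not tested.

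**Figure D1:**
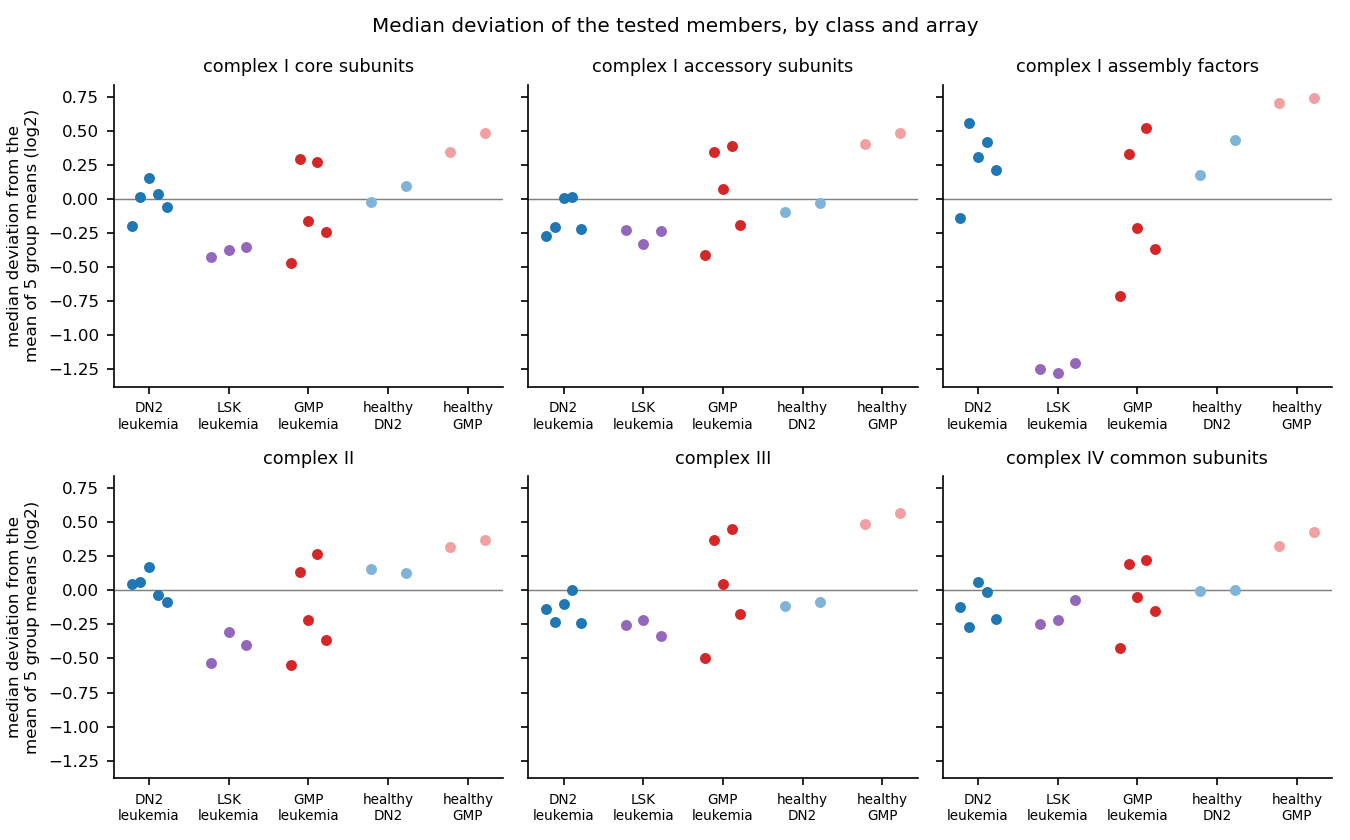
Each point is 1 array, grouped on the horizontal axis by sample group. The vertical axis is the median, over the members of a class, of the log2 deviation from the mean of the 5 group means. The 3 LSK leukemia arrays lie between -1.28 and -1.21 for the complex I assembly factors, below every array of the other groups, and the healthy GMP arrays are the highest in the 6 classes drawn, which leave out the tissue isoforms of complex IV, where they are not.

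The complex I assembly factors had a larger share of called genes than any other class in both comparisons with LSK leukemia. These proteins build complex I and are not part of the finished enzyme. In DN2 leukemia minus LSK leukemia, 5 of the 7 rose, with a class median of 1.66. That compares with 26.1% of all tested members and 47.4% of all genes tested that were called in either direction. In LSK leukemia minus GMP leukemia the same count, 5 of 7, fell, with a median of -1.13 (21.7% of members and 26.7% of all genes called), and 2 of these 5 calls, Ndufaf5 and Ndufaf6, were kept without LSK leukemia arrays 2 and 3. The 2 comparisons share the LSK leukemia arrays. In DN2 leukemia minus GMP leukemia, 2 of 7 rose (15.9% of members and 39.8% of all genes called). The cycling-cell marker list (7 of 8 genes) had means of 7.04 to 10.04 in DN2 leukemia, 9.34 to 9.87 in LSK leukemia and 9.43 to 10.38 in GMP leukemia. The neutrophil list (7 of 8 genes) had means of 3.50 to 4.30, 10.83 to 13.24 and 11.99 to 13.13 in the same groups. The monocyte list (6 of 6 genes) had means of 3.69 to 7.09 in DN2 leukemia, 7.95 to 10.79 in LSK leukemia and 4.09 to 7.27 in GMP leukemia. Their part in the assembly factor differences was not tested.

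Ndufaf6, needed early in assembly, had levels of 6.90, 7.74, 7.45, 7.56 and 7.57 in DN2 leukemia, 5.04, 5.70 and 5.02 in LSK leukemia and 6.27, 7.83, 6.85, 8.19 and 6.77 in GMP leukemia. It was 7.55 and 7.62 in healthy DN2 and 8.15 and 8.31 in healthy GMP. Every LSK leukemia array was below every other array. The difference was 2.19 ± 0.36 (SE, adjusted p = 0.000193) for DN2 leukemia minus LSK leukemia and -1.93 ± 0.36 (SE, adjusted p = 0.00143) for LSK leukemia minus GMP leukemia. Ndufaf5, which modifies the core subunit Ndufs7, had levels of 7.13, 7.59, 7.64, 7.77 and 7.69 in DN2 leukemia, 5.47, 5.94 and 5.83 in LSK leukemia and 6.07, 6.95, 7.05, 7.57 and 6.71 in GMP leukemia. Again the LSK leukemia arrays did not overlap with any other group. Ndufaf5 differed by 1.82 ± 0.26 (SE, adjusted p = 5.85e-05) between DN2 leukemia and LSK leukemia, by -1.12 ± 0.26 (SE, adjusted p = 0.0053) between LSK leukemia and GMP leukemia and by 0.69 ± 0.22 (SE, adjusted p = 0.0221) between DN2 leukemia and GMP leukemia. The last difference had overlapping arrays, and it missed the threshold when DN2 leukemia array 4 was left out.

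Ndufaf1, a subunit of the complex that builds the membrane arm, was 8.15, 8.88, 8.52, 8.83 and 8.38 in DN2 leukemia, 6.85, 6.85 and 6.97 in LSK leukemia and 7.45, 8.46, 7.95, 8.69 and 7.95 in GMP leukemia. The 3 LSK leukemia arrays were close to one another and below all other arrays. The difference was 1.66 ± 0.24 (SE, adjusted p = 6.72e-05) for DN2 leukemia minus LSK leukemia and -1.21 ± 0.24 (SE, adjusted p = 0.00209) for LSK leukemia minus GMP leukemia. Ndufaf2, a late-acting chaperone related to the subunit Ndufa12, differed by 1.08 ± 0.38 (SE, adjusted p = 0.0292) and by -1.13 ± 0.38 (SE, adjusted p = 0.0397) in those comparisons. Ndufaf4 had the largest difference between DN2 leukemia and LSK leukemia among the members, at 2.24 ± 0.38 (SE, adjusted p = 0.000255). Its level was 9.39, 9.87, 9.36, 9.83 and 10.25 in DN2 leukemia, 8.67, 7.06 and 6.78 in LSK leukemia and 8.40, 9.40, 8.25, 9.16 and 8.51 in GMP leukemia, so LSK leukemia array 1 lay within the GMP leukemia range and arrays 2 and 3 below it. The difference for LSK leukemia minus GMP leukemia was -1.24 ± 0.38 (SE, adjusted p = 0.0253), and -0.07 (adjusted p = 0.949) without arrays 2 and 3. A second Ndufaf4 probe set gave 2.19 for DN2 leukemia minus LSK leukemia and -1.80 for LSK leukemia minus GMP leukemia. Between DN2 leukemia and GMP leukemia Ndufaf4 differed by 1.00 ± 0.33 (SE, adjusted p = 0.0252), and the second probe set gave 0.39. This call was lost with the mean of all probe sets of the gene (limma adjusted p = 0.0567). It was also lost without DN2 leukemia array 2 or 5 or GMP leukemia array 1, 3 or 5.

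Ndufaf3 and Ndufaf8 did not pass the test. Ndufaf3, which acts together with Ndufaf4, was 7.35, 8.45 and 8.52 in LSK leukemia, with a difference of -0.44 ± 0.27 (SE, adjusted p = 0.192) for DN2 leukemia minus LSK leukemia. Ndufaf8, a partner of Ndufaf5, differed by 0.27 ± 0.16 (SE, adjusted p = 0.18). Without LSK leukemia arrays 2 and 3, array 1 stands alone and is taken to vary as much as the other groups do. Ndufaf5, Ndufaf6 and Ndufaf1 were then still called against DN2 leukemia, by 2.09 (adjusted p = 0.00208), 2.40 (adjusted p = 0.00674) and 1.70 (adjusted p = 0.00578). Ndufaf4 fell short at 1.07 (adjusted p = 0.0742). Of all members, 8 were called in place of 18, namely these 3, Sdha, Sdhb and Cyc1, with Ndufs4 at 0.92 and Cox7a1 at -1.27, which were not called with all 3 arrays. In LSK leukemia minus GMP leukemia 5 were called in place of 15, namely Ndufaf5 at -1.40 (adjusted p = 0.0387), Ndufaf6 at -2.14 (adjusted p = 0.0249), Cyc1, Cox6b2 and, not called with all 3 arrays, Cox7a1 at 1.35. Ndufaf1 at -1.25 (adjusted p = 0.0519) and Ndufaf2 at -0.96 (adjusted p = 0.35) then missed the threshold, as Ndufaf4 did. Without DN2 leukemia arrays 1 and 3, 13 members were called in DN2 leukemia minus LSK leukemia and 10 in DN2 leukemia minus GMP leukemia. Against LSK leukemia the calls of Cyc1, Sdhb, Ndufb5, Ndufv3 and Ndufaf2 were then lost, the last at 0.99 (adjusted p = 0.0898), while Ndufaf4, Ndufaf6, Ndufaf5 and Ndufaf1 differed by 2.48, 2.37, 1.94 and 1.80 (adjusted p = 0.00056, 0.000523, 0.000187 and 0.000176).

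**Figure D2:**
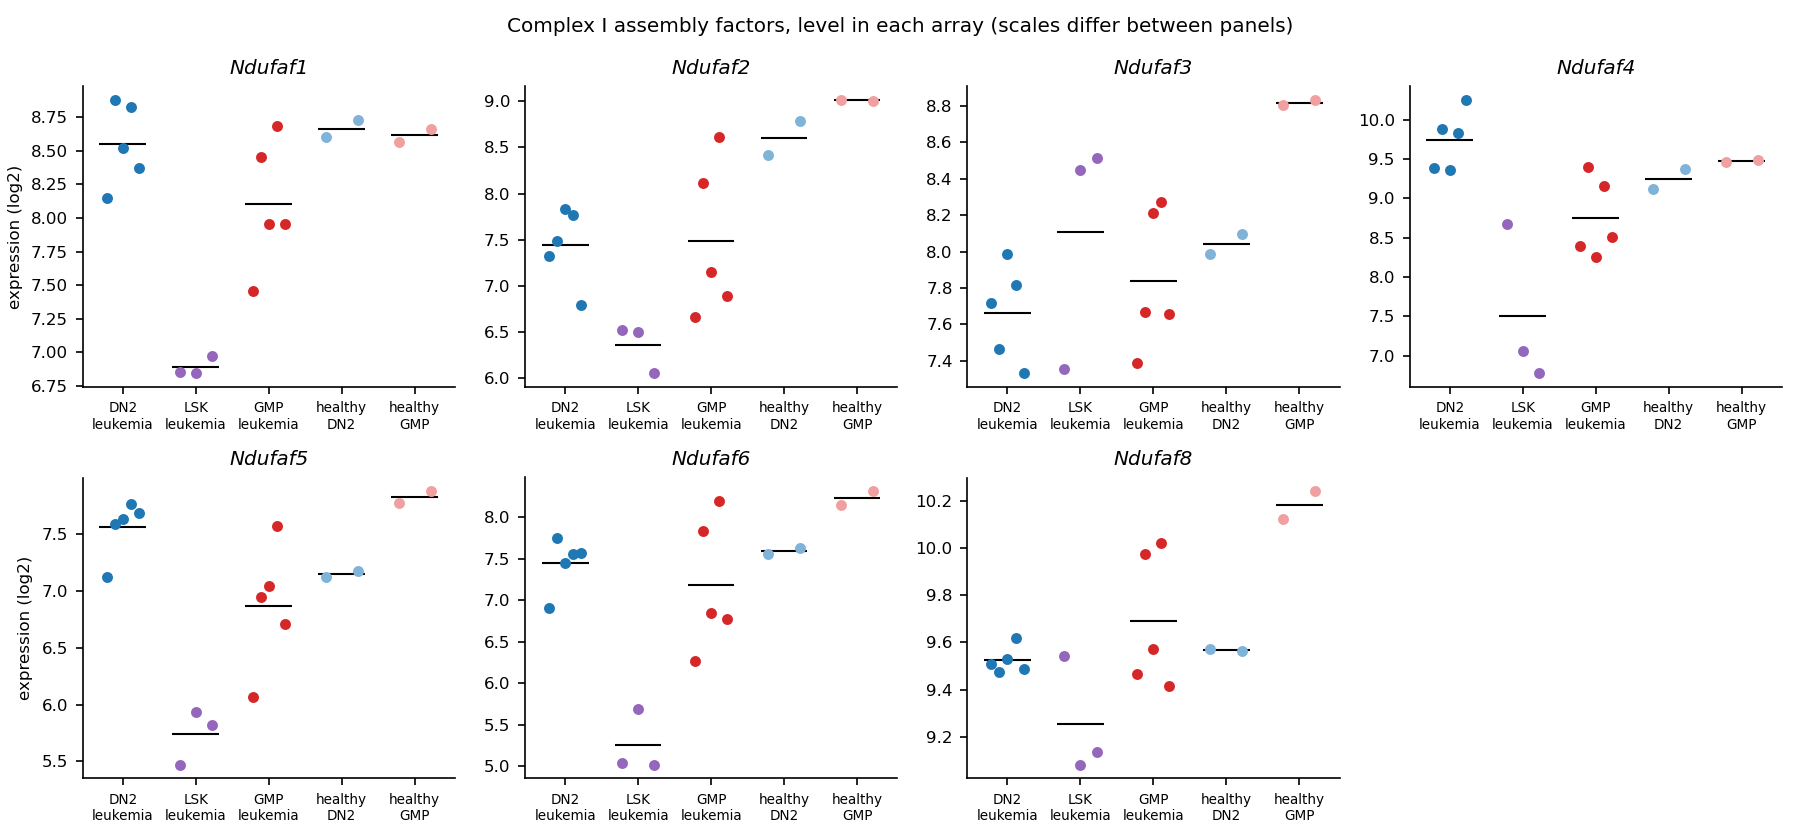
Log2 expression level of the 7 complex I assembly factors in each of the 17 arrays (points), with the group mean as a line; the vertical scales differ between panels and do not start at 0. Ndufaf1, Ndufaf2, Ndufaf5 and Ndufaf6 have all 3 LSK leukemia arrays below every array of the other groups, while Ndufaf4 has LSK leukemia array 1 apart from arrays 2 and 3.

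The start regions of the members whose differences stand out are shown for reference, as RefSeq promoter windows of 300 bases (250 before and 50 after the annotated start, build GRCm38.p6). Windows were found for 56 of the 72 members, 58 in all. Each window was searched on both strands for the letters GCATGCG, a core of the site of NRF1, a regulator of nuclear genes for mitochondria. The other motifs were CCGGAAG for ETS factors, CACGTG for the E-box that Myc and its relatives bind, and ATGGCGG for YY1. The NRF1 letters were in 17.2% of the member windows, against 6.05% of the windows of genes tested and 3.58% of all 32851 windows. The ETS letters were in 19.0% of member windows, 16.8% of windows of genes tested and 8.86% of all, the YY1 letters in 17.2%, 7.53% and 4.05%, and the E-box in 5.17%, 9.73% and 7.15%. Among the 6 assembly factors with a window, Ndufaf4 and Ndufaf5 held the NRF1 letters, Ndufaf1 and Ndufaf8 the ETS letters, and none the E-box. A match is a string of letters and not a measured binding site. Overlapping NRF1 matches on the 2 strands share 6 of their letters. Capitals mark the motif matches in the windows of Ndufaf4 (chr4:24897833-24898132, plus strand), Ndufaf5 (chr2:140170396-140170695, plus strand), Ndufaf1 (chr2:119662785-119663084, minus strand) and Cox6b2 (chr7:4753045-4753344, minus strand), the last with none of the 4 motifs:
Ndufaf4: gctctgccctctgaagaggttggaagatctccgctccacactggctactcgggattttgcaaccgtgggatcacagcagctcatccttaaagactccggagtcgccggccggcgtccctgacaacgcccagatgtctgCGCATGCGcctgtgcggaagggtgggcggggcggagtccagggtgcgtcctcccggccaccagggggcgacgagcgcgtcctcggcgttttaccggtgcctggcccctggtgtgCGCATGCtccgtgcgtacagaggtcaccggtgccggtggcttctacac
Ndufaf5: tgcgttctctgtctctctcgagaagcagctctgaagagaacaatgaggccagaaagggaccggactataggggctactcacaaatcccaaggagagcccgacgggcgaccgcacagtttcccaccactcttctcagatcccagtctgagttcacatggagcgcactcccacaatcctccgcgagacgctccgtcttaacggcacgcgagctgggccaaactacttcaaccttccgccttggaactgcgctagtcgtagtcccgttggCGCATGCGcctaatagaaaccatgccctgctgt
Ndufaf1: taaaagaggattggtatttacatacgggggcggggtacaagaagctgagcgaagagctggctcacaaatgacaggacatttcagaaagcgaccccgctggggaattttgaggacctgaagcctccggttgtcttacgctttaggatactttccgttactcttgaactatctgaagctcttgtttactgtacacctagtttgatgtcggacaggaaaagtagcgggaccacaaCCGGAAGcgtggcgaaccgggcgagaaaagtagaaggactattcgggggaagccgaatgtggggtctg
Cox6b2: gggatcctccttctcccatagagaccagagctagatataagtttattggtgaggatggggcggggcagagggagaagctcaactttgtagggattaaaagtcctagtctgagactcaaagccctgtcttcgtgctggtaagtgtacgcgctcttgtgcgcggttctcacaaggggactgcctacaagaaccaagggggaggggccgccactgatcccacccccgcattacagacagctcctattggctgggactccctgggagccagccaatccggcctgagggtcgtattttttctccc

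Among the structural subunits of complex I the called differences between leukemias went in both directions. In DN2 leukemia minus LSK leukemia, 2 of the 6 core subunits rose, and of the 26 accessory subunits 4 rose and 2 fell. The called shares were 33.3% of the core and 23.1% of the accessory subunits, against 47.4% of all genes tested (28.4% rose and 19.1% fell). Ndufs3, a core subunit of the arm that passes electrons to ubiquinone, was 10.43, 10.58, 10.66, 10.83 and 10.53 in DN2 leukemia and 9.91, 9.92 and 9.77 in LSK leukemia, without overlap. Its difference was 0.74 ± 0.17 (SE, adjusted p = 0.00211). It was 0.43 ± 0.14 (SE, adjusted p = 0.0256) against GMP leukemia, where arrays overlapped and the call was lost without DN2 leukemia array 4 or GMP leukemia array 1, 3 or 5. Ndufs7, the core subunit that holds the last iron-sulfur cluster, differed by 0.50 ± 0.15 (SE, adjusted p = 0.016) between DN2 leukemia and LSK leukemia. When arrays were centred on the median of the genes tested, the member calls in this comparison were 11 higher and 6 lower, in place of 16 and 2, since the median of all genes was itself shifted by 0.11.

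The accessory subunits Ndufa12, Ndufa10 and Ndufab1 were lowest in LSK leukemia. Ndufa12 was 11.46, 11.53, 11.84, 11.61 and 11.57 in DN2 leukemia, 11.25, 10.31 and 10.43 in LSK leukemia and 11.28, 11.84, 11.57, 11.88 and 11.42 in GMP leukemia. It differed by 0.94 ± 0.20 (SE, adjusted p = 0.0015) for DN2 leukemia minus LSK leukemia, and by -0.94 ± 0.20 (SE, adjusted p = 0.00353) for LSK leukemia minus GMP leukemia. A second probe set of Ndufa12 differed the same way, by 1.05 and -1.09, but another, of low signal, went the other way, by -1.12 and 1.39. LSK leukemia array 1 was close to GMP leukemia, and without arrays 2 and 3 the DN2 leukemia minus LSK leukemia difference was 0.35 (adjusted p = 0.276). Ndufa10, an accessory subunit of the membrane arm, was 11.04, 11.11, 11.03, 11.07 and 10.87 in DN2 leukemia, 10.28, 10.07 and 10.19 in LSK leukemia and 10.86, 11.60, 10.98, 11.08 and 10.35 in GMP leukemia. Its differences were 0.85 ± 0.20 (SE, adjusted p = 0.00302) and -0.80 ± 0.20 (SE, adjusted p = 0.00901) in the same comparisons, and no LSK leukemia array overlapped with the others. Ndufab1, the mitochondrial acyl carrier protein, differed by 0.88 ± 0.26 (SE, adjusted p = 0.0113) and -1.11 ± 0.26 (SE, adjusted p = 0.00565). The remaining called accessory subunits were Ndufb5, at 0.60 for DN2 leukemia minus LSK leukemia, and Ndufc2, Ndufs6 and Ndufa8, at -0.79, -0.66 and -0.55 for LSK leukemia minus GMP leukemia.

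Other accessory subunits were lower in DN2 leukemia than in GMP leukemia. Ndufv3, a small subunit of the arm that oxidises NADH, was 10.81, 10.98, 11.01, 11.06 and 11.09 in DN2 leukemia, 11.71, 11.19 and 11.46 in LSK leukemia and 11.95, 12.28, 11.64, 11.77 and 11.38 in GMP leukemia, and 10.87 and 10.85 in healthy DN2. The DN2 leukemia arrays were below every array of the other leukemias and overlapped with healthy DN2. The difference was -0.81 ± 0.16 (SE, adjusted p = 0.000692) for DN2 leukemia minus GMP leukemia. It was -0.46 ± 0.18 (SE, adjusted p = 0.0452) for DN2 leukemia minus LSK leukemia, a call that was lost without LSK leukemia array 1 or 3 or DN2 leukemia array 1, 2, 3 or 4. Ndufb7, a membrane arm subunit on the intermembrane side, was 10.77, 10.44, 11.20, 10.81 and 10.39 in DN2 leukemia, 11.57, 11.27 and 11.57 in LSK leukemia and 11.61, 11.84, 11.58, 11.53 and 11.08 in GMP leukemia. DN2 leukemia lay below LSK leukemia and overlapped with GMP leukemia array 5. Ndufb7 differed by -0.81 for DN2 leukemia minus GMP leukemia and by -0.75 for DN2 leukemia minus LSK leukemia, both called, and a second probe set gave -0.76 and -0.69. Ndufa8 also fell, with a difference of -0.58 ± 0.14 (SE, adjusted p = 0.00347) for DN2 leukemia minus GMP leukemia. Ndufs6 and Ndufb8, at -0.53 and -0.40, completed the 5 of 26 accessory subunits that fell in that comparison. That share, 19.2%, is near the 18.8% of all genes tested that fell. A low second probe set of Ndufb8 differed by 0.27. With quantile normalization of the deposited values the member calls in DN2 leukemia minus GMP leukemia were 6 higher and 6 lower, in place of 4 and 7.

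The 4 genes of complex II, succinate dehydrogenase, were called in different comparisons. Sdhb, the iron-sulfur subunit, was 11.42, 11.23, 11.71, 11.35 and 11.20 in DN2 leukemia, 10.46, 11.02 and 11.16 in LSK leukemia and 10.40, 10.89, 10.98, 10.67 and 10.47 in GMP leukemia, and 11.18 and 11.26 in healthy DN2 and 11.18 and 11.31 in healthy GMP. Every DN2 leukemia array was above every array of the other leukemias. The difference was 0.70 ± 0.16 (SE, adjusted p = 0.00256) against GMP leukemia and 0.51 ± 0.18 (SE, adjusted p = 0.0348) against LSK leukemia. Sdha, the flavoprotein that oxidises succinate, was 11.28, 11.29, 11.33, 11.26 and 10.98 in DN2 leukemia, 10.41, 10.44 and 10.68 in LSK leukemia and 10.57, 11.48, 10.76, 11.29 and 10.83 in GMP leukemia, against 11.30 and 11.32 in healthy DN2 and 11.39 and 11.41 in healthy GMP. It differed by 0.72 ± 0.18 (SE, adjusted p = 0.00522) for DN2 leukemia minus LSK leukemia, and a second probe set gave 0.28. Without LSK leukemia arrays 2 and 3 the differences against LSK leukemia were 0.92 for Sdhb (adjusted p = 0.0135) and 0.82 for Sdha (adjusted p = 0.0497). The Sdhb call against LSK leukemia was lost without LSK leukemia array 1 or DN2 leukemia array 1, 3 or 4, and was 0.38 (adjusted p = 0.146) without DN2 leukemia arrays 1 and 3.

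Sdhc and Sdhd anchor complex II in the membrane. Sdhc was 8.74, 8.65, 8.94, 8.74 and 8.31 in DN2 leukemia, 8.77, 8.76 and 8.58 in LSK leukemia and 8.40, 8.86, 8.54, 9.30 and 8.51 in GMP leukemia, against 9.19 and 9.06 in healthy DN2 and 9.61 and 9.69 in healthy GMP. It fell in GMP leukemia against healthy GMP, with a difference of -0.93 ± 0.22 (SE, adjusted p = 0.00863), and all 5 arrays were below both healthy arrays. Sdhd was 7.18, 7.24, 7.37, 6.91 and 7.21 in DN2 leukemia, 6.82, 6.87 and 6.78 in LSK leukemia and 7.03, 7.90, 7.35, 7.73 and 7.04 in GMP leukemia. In LSK leukemia against GMP leukemia Sdhd differed by -0.58 ± 0.19 (SE, adjusted p = 0.0329), a call lost without any 1 of the 3 LSK leukemia arrays or GMP leukemia array 2 or 4.

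In complex III, which carries electrons from ubiquinone to cytochrome c, Uqcrb, Cyc1 and Uqcrc2 were called between leukemias. Uqcrb, a ubiquinone-binding subunit, was 9.39, 9.71, 9.96, 10.07 and 9.59 in DN2 leukemia, 10.15, 10.09 and 10.10 in LSK leukemia and 9.86, 10.39, 10.67, 10.84 and 10.57 in GMP leukemia, against 10.38 and 10.43 in healthy DN2 and 10.82 and 10.90 in healthy GMP. The DN2 leukemia arrays were below both healthy DN2 arrays and overlapped with GMP leukemia. Uqcrb fell in DN2 leukemia, with a difference of -0.72 ± 0.17 (SE, adjusted p = 0.00388) against GMP leukemia. The difference of -0.66 ± 0.23 (SE, adjusted p = 0.0499) against healthy DN2 was at the threshold and was lost without DN2 leukemia array 1, 2 or 5 or either healthy DN2 array, and without DN2 leukemia arrays 1 and 3 (adjusted p = 0.0987). Cyc1, cytochrome c1, was 10.59, 10.76, 10.99, 10.77 and 10.45 in DN2 leukemia, 9.89, 10.19 and 10.29 in LSK leukemia and 10.42, 11.12, 10.87, 11.16 and 10.55 in GMP leukemia. LSK leukemia was below both other leukemias without overlap, with 0.59 ± 0.18 (SE, adjusted p = 0.0166) for DN2 leukemia minus LSK leukemia and -0.70 ± 0.18 (SE, adjusted p = 0.0113) for LSK leukemia minus GMP leukemia. The Cyc1 call against DN2 leukemia was lost without LSK leukemia array 1, and without DN2 leukemia arrays 1 and 3 (adjusted p = 0.054). Uqcrc2, a core protein of the matrix side, was called in the same 2 comparisons at 0.40 and -0.46, with adjusted p-values of 0.0469 and 0.0418. Each Uqcrc2 call was lost without any 1 of the 3 LSK leukemia arrays.

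Cycs, cytochrome c, is the mobile carrier between complexes III and IV, and its release from mitochondria triggers apoptosis. Its level was 10.86, 10.96, 11.33, 11.26 and 11.09 in DN2 leukemia, 10.71, 10.95 and 10.78 in LSK leukemia and 10.57, 11.13, 11.55, 11.63 and 11.18 in GMP leukemia, against 11.10 and 11.28 in healthy DN2 and 12.11 and 12.12 in healthy GMP. The healthy GMP arrays were above all 15 others. Cycs fell in GMP leukemia, with a difference of -0.90 ± 0.23 (SE, adjusted p = 0.0137) against healthy GMP, and a second probe set gave -0.78. None of the 3 comparisons between leukemias passed the test, with adjusted p-values of 0.671, 0.26 and 0.162.

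The common subunits of complex IV, the cytochrome c oxidase, were not called between leukemias. limma called 0 of the 10 in DN2 leukemia minus GMP leukemia, DN2 leukemia minus LSK leukemia and LSK leukemia minus GMP leukemia. Of all genes tested 39.8%, 47.4% and 26.7% were called there. In the same order 0, 0 and 2 of the 10 had an unadjusted p under 0.05. The differences of the 10 ran from -0.24 to 0.20, from -0.11 to 0.21 and from -0.43 to 0.09 in those comparisons. The median standard errors were 0.14, 0.16 and 0.16. Cox4i1, the common form of subunit 4, was 12.30, 12.16, 12.40, 12.33 and 12.31 in DN2 leukemia, 12.31, 12.25 and 12.29 in LSK leukemia and 12.18, 12.66, 12.48, 12.50 and 12.36 in GMP leukemia. These groups overlapped.

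Among the isoform genes and relatives, Cox6b2, Cox6a2 and Cox7a2l were called. Cox6b2, the testis form of subunit 6b, was 4.16, 4.53, 4.55, 4.74 and 4.32 in DN2 leukemia, 4.35, 6.12 and 6.65 in LSK leukemia and 6.98, 9.33, 7.17, 9.14 and 7.88 in GMP leukemia. It was 8.02 and 8.26 in healthy DN2 and 8.62 and 8.67 in healthy GMP. The DN2 leukemia arrays were close to background and LSK leukemia array 1 lay among them, while every GMP leukemia and healthy array was at least 6.98. Cox6b2 fell in DN2 leukemia, with differences of -3.64 ± 0.47 (SE, adjusted p = 2.16e-05) against GMP leukemia and -3.68 ± 0.63 (SE, adjusted p = 0.000582) against healthy DN2. With 1 side close to background these differences are compressed. LSK leukemia was lower than GMP leukemia, with a difference of -2.39 ± 0.55 (SE, adjusted p = 0.00519), and of -3.75 (adjusted p = 0.00433) with LSK leukemia array 1 alone.

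The granule enzyme gene Mpo, a promyelocyte marker, was 3.35, 3.40, 3.62, 3.67 and 3.56 in DN2 leukemia, 8.18, 11.18 and 11.70 in LSK leukemia and 7.71, 13.34, 7.95, 13.36 and 8.87 in GMP leukemia, against 10.60 and 10.57 in healthy DN2 and 13.88 and 13.95 in healthy GMP. Cox6b2 and Mpo were both high in GMP leukemia arrays 2 and 4 and both low in DN2 leukemia. LSK leukemia arrays 2 and 3 had Mpo at 11.18 and 11.70 and Cox6b2 at 6.12 and 6.65. Healthy DN2 had Mpo at 10.60 and 10.57 and Cox6b2 at 8.02 and 8.26. Of the other promyelocyte genes in healthy DN2, Ctsg was at 7.52 and 7.49, and Elane, Prtn3 and Ms4a3 were between 2.96 and 4.59. The whole list averaged 5.84 and 6.00 there. The part of promyelocyte content in the Cox6b2 difference was not tested. Cox6b1, the common form, was 12.03, 11.91, 12.29, 12.14 and 11.80 in DN2 leukemia, 11.88, 12.09 and 12.13 in LSK leukemia and 11.57, 12.37, 12.02, 12.37 and 11.87 in GMP leukemia, and it differed by -0.01 ± 0.16 (SE, adjusted p = 0.976) for DN2 leukemia minus GMP leukemia.

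Cox6a2, the heart and skeletal muscle form of subunit 6a, had its highest values in healthy DN2. Its level was 5.06, 4.38, 4.61, 4.18 and 4.33 in DN2 leukemia, 4.99, 4.38 and 4.18 in LSK leukemia and 3.70, 4.04, 3.93, 4.31 and 4.15 in GMP leukemia, against 5.70 and 5.80 in healthy DN2 and 4.30 and 4.80 in healthy GMP. It fell in DN2 leukemia, with a difference of -1.24 ± 0.26 (SE, adjusted p = 0.00281) against healthy DN2, and rose in healthy DN2 by 1.20 ± 0.31 (SE, adjusted p = 0.0194) against healthy GMP. The group means outside healthy DN2 were 4.03 to 4.55, close to background, so these differences are compressed. Cox6a2 had 1 probe set. The muscle marker list averaged 3.40 to 4.00 in all arrays, which is background. Cox6a1, the common form, differed by -0.12 ± 0.17 (SE, adjusted p = 0.693) for DN2 leukemia minus healthy DN2.

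Of the other isoform genes, Cox7a1 of heart and muscle, Cox8b of heart and muscle and Cox8c of testis stayed near background, with group means of 3.43 to 4.27. Cox7a1 had 1 array apart, LSK leukemia array 1 at 4.78 against 3.60 and 3.53 in arrays 2 and 3. Their common counterparts Cox7a2 and Cox8a differed by -0.10 ± 0.12 (SE, adjusted p = 0.532) and 0.20 ± 0.19 (SE, adjusted p = 0.442) for DN2 leukemia minus GMP leukemia. Cox7a2l, a relative of subunit 7a, was 11.38, 11.54, 11.28, 11.34 and 11.73 in DN2 leukemia and 10.97, 10.89 and 10.94 in LSK leukemia, without overlap. The difference was 0.52 ± 0.16 (SE, adjusted p = 0.0139), and 2 further probe sets gave 0.37 and 0.42. Ndufa4, once assigned to complex I and now to complex IV, and the hypoxia-induced relative Ndufa4l2 are the last pair, and Ndufa4l2 was at background in every group.

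**Figure D3:**
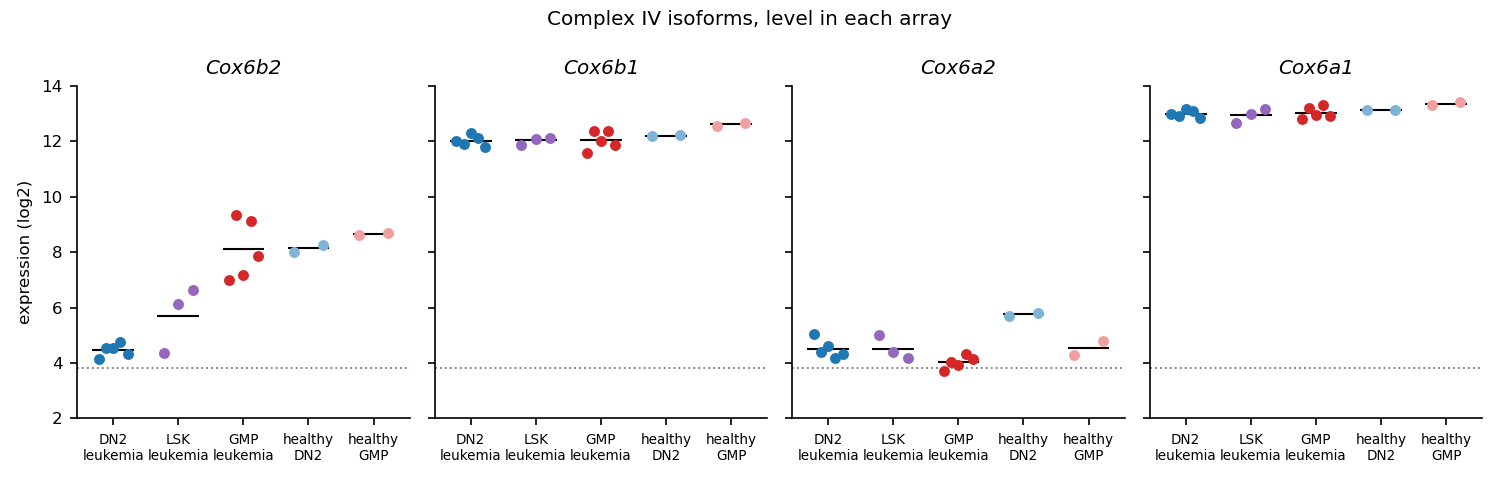
Log2 expression level in each array (points) with the group mean (line) for the isoform Cox6b2 beside the common Cox6b1, and the isoform Cox6a2 beside the common Cox6a1; the dotted line is the median of all values, 3.83, and levels of different genes are not comparable. Cox6b2 spans 4.16 to 4.74 in DN2 leukemia and 6.98 to 9.33 in GMP leukemia, while Cox6b1 overlaps between those groups.

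Against healthy GMP, 9 of the 69 tested members fell in GMP leukemia, a share near the 13.1% of all genes tested that fell (8.09% rose and 21.2% were called in either direction). By limma 0 rose, and 29 had an unadjusted p under 0.05. The differences of 63 of the 69 were below 0, and the median was -0.49, against -0.12 over all genes tested. The 9 genes lay in every complex. They were the assembly factors Ndufaf2 (-1.52), Ndufaf3 (-0.98) and Ndufaf5 (-0.96), the complex I subunits Ndufa1 (-0.62) and Ndufs3 (-0.57), Sdhc and Cycs as above, Uqcrq of complex III (-0.77) and Ndufa4 of complex IV. The other 3 probe sets of Uqcrq were at background. Ndufaf2 was 6.67, 8.11, 7.16, 8.61 and 6.89 in GMP leukemia and 9.02 and 9.003 in healthy GMP, a difference of -1.52 ± 0.43 (SE, adjusted p = 0.0226). Ndufa4 was 11.27, 12.07, 11.90, 12.19 and 11.72 in GMP leukemia and 12.57 and 12.65 in healthy GMP, a difference of -0.78 ± 0.23 (SE, adjusted p = 0.0241). Neither gene overlapped between the groups, and 33 of the 69 members did not, against 43.5% of all genes tested.

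The Ndufaf3 call was also lost without GMP leukemia array 1, 2 or 5, the Ndufs3 call without array 1, 3 or 5 and the Uqcrq call without array 5. The count of members depended on single arrays. It was 21 without GMP leukemia array 2, 25 without array 4, 5 without array 5, and 0 without either healthy GMP array, where 20 and 7 members had an unadjusted p under 0.05. A fit on the arrays of these groups alone called 0, with 15 at an unadjusted p under 0.05. The neutrophil list averaged 11.99 to 13.13 in GMP leukemia and 5.49 to 5.66 in healthy GMP. The promyelocyte list averaged 8.59 to 12.67 in GMP leukemia and 13.21 to 13.31 in healthy GMP, and the monocyte list (6 of 6 genes) averaged 4.09 to 7.27 in GMP leukemia and 8.295 to 8.62 in healthy GMP. The cycling-cell list averaged 9.43 to 10.38 in GMP leukemia and 10.80 to 10.81 in healthy GMP. The part of these lists in the member differences was not tested.

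Of the 69 members 3 fell in DN2 leukemia minus healthy DN2 (4.35%, against 23.2% of all genes tested), namely Cox6b2, Cox6a2 and Uqcrb, and 0 rose by limma, with 7 at an unadjusted p under 0.05. Of all genes tested 9.49% rose and 13.7% fell. The arrays did not overlap for 19 of the 69 members, against 50.0% of all genes. The median difference was -0.09, against 0.01 over all genes. Natural killer cell markers averaged 9.43 to 11.49 in DN2 leukemia and 5.71 to 5.73 in healthy DN2, and cycling-cell markers 7.04 to 10.04 in DN2 leukemia and 10.62 to 10.65 in healthy DN2. Their part in the 3 falls was not tested. The 2 healthy groups were also compared. In healthy DN2 minus healthy GMP the differences of 63 of the 69 were below 0, with a median of -0.45 against -0.06 over all genes tested. Only 3 passed (4.35%, against 11.2% of all genes), Cycs at -0.92 ± 0.28 (SE, adjusted p = 0.0456), Cox4i1 at -0.54 ± 0.16 (SE, adjusted p = 0.0452) and Cox6a2 with the opposite sign, when 5.78% of all genes rose and 5.40% fell. The arrays did not overlap for 62 of the 69 members, against 76.5% of all genes. With centring or quantile normalization 1 was higher and 1 lower, in place of 1 and 2. In a fit on these 4 arrays alone 1 was higher and 45 lower. Leaving out healthy DN2 array 1 or 2 or healthy GMP array 1 left 0 called, with 7, 11 and 17 at an unadjusted p under 0.05, and leaving out healthy GMP array 2 left 1.

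The interaction tests whether the leukemia minus healthy difference was the same for DN2 as for GMP. It was called for 2 of the 69 members (2.90%, against 12.7% of all genes tested, 6.39% higher and 6.28% lower). Cox6b2 had an interaction of -3.13 ± 0.89 (SE, adjusted p = 0.0308), from -3.68 for DN2 leukemia minus healthy DN2 and -0.55 for GMP leukemia minus healthy GMP. Ndufaf5 had an interaction of 1.37 ± 0.42 (SE, adjusted p = 0.044), from 0.41 and -0.96. The Cox6b2 call was lost without any 1 of the 4 healthy arrays, and without DN2 leukemia arrays 1 and 3 (adjusted p = 0.062). The Ndufaf5 call was lost without any 1 of 11 arrays, and held only when DN2 leukemia array 1 or GMP leukemia array 1 or 4 was left out.

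**Figure D4:**
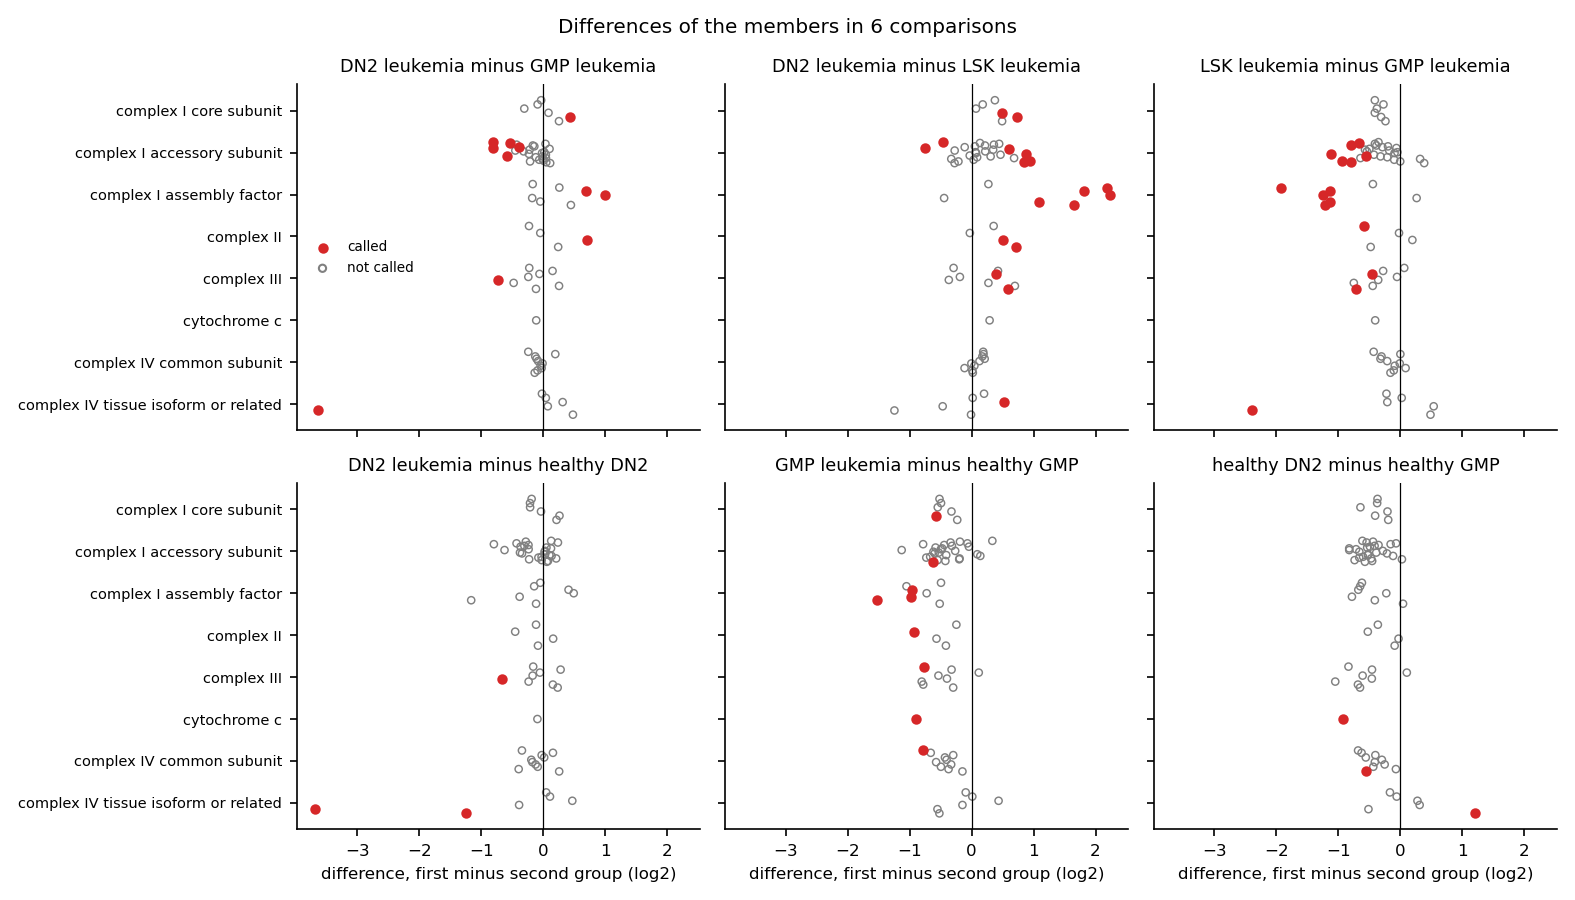
Log2 difference of each tested member (points), first group minus second group as each panel is titled, by class from top to bottom; filled red points are called and open grey points are not, and Ndufs5-ps is not drawn. The assembly factors reach 2.24 in DN2 leukemia minus LSK leukemia, the common subunits of complex IV stay between -0.43 and 0.21 in the 3 comparisons between leukemias, and most points lie below 0 in GMP leukemia minus healthy GMP.

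Genes of related mitochondrial pathways gave the setting. These lists were counted with all LSK leukemia arrays, and not without arrays 2 and 3. The 73 mitochondrial ribosome genes translate the mitochondrial members of the chain. In DN2 leukemia minus LSK leukemia 46 of them rose and 1 fell, with a median of 0.74, when 28.4% of all genes tested rose and 19.1% fell. In LSK leukemia minus GMP leukemia 30 fell and 1 rose, with a median of -0.55, when 16.5% of all genes fell and 10.3% rose. Mrps6 differed by 3.01 ± 0.28 (SE, adjusted p = 1.37e-06) and -2.18 ± 0.28 (SE, adjusted p = 0.000122) in those comparisons. In GMP leukemia minus healthy GMP 17 of the 73 fell, with a median of -0.61, when 13.1% of all genes fell. Of 15 ATP synthase genes 5 rose in DN2 leukemia minus LSK leukemia, among them Atp5g2 at 0.76 ± 0.20 (SE, adjusted p = 0.00545), and 2 fell in LSK leukemia minus GMP leukemia, Atp5b at -0.81 ± 0.13 (SE, adjusted p = 0.000458) and Atp5g1 at -1.01 ± 0.28 (SE, adjusted p = 0.0145). These ATP synthase counts are near the shares of all genes, 28.4% and 16.5%.

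Assembly genes with other symbols were counted separately, beside the same shares of all genes tested. These were 28.4% risen and 19.1% fallen in DN2 leukemia minus LSK leukemia, and 16.5% fallen in LSK leukemia minus GMP leukemia. Of 8 further complex I assembly genes 4 rose in DN2 leukemia minus LSK leukemia, Tmem186 by 2.21 ± 0.26 (SE, adjusted p = 1.22e-05) and Ecsit by 1.82 ± 0.22 (SE, adjusted p = 1.43e-05) among them, and 5 fell in LSK leukemia minus GMP leukemia, among them Tmem70 at -1.54 ± 0.14 (SE, adjusted p = 7.82e-06). Tmem186 and Ecsit are parts of the complex that also holds Ndufaf1. Of 8 tested assembly genes of complexes II and III, 6 rose in DN2 leukemia minus LSK leukemia and 3 fell in LSK leukemia minus GMP leukemia. Of 14 tested complex IV assembly genes, 7 rose in the first comparison, with Lrpprc, which stabilises mitochondrial messenger RNA, at 1.81 ± 0.27 (SE, adjusted p = 9.24e-05), and 4 fell in the second. Of 14 regulators of mitochondrial biogenesis, 9 rose and 2 fell in DN2 leukemia minus LSK leukemia. In DN2 leukemia minus GMP leukemia 3 of them rose and 1 fell, when 21.0% of all genes tested rose and 18.8% fell. Ppargc1b, a coactivator of mitochondrial genes, rose in DN2 leukemia by 3.56 ± 0.94 (SE, adjusted p = 0.00624) against LSK leukemia and by 3.55 ± 0.81 (SE, adjusted p = 0.00283) against GMP leukemia, and Tfam, which packages mitochondrial DNA, by 1.41 ± 0.19 (SE, adjusted p = 3.85e-05) against GMP leukemia.

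The tricarboxylic acid cycle, which feeds the chain, was also listed. Of 18 genes 7 rose and 2 fell in DN2 leukemia minus LSK leukemia, when 28.4% of all genes tested rose and 19.1% fell. In LSK leukemia minus GMP leukemia 8 fell, when 16.5% of all genes fell. In DN2 leukemia minus GMP leukemia 2 rose and 3 fell, beside 21.0% and 18.8% of all genes. In DN2 leukemia minus healthy DN2 1 rose and 1 fell, beside 9.49% and 13.7% of all genes. Idh2, the mitochondrial NADP-dependent isocitrate dehydrogenase, fell in DN2 leukemia, with differences of -2.72 ± 0.29 (SE, adjusted p = 3.21e-06) against GMP leukemia and -3.53 ± 0.39 (SE, adjusted p = 9.82e-06) against healthy DN2. Suclg2, a subunit of succinyl-CoA ligase, which makes the succinate that complex II oxidises, rose by 2.11 ± 0.35 (SE, adjusted p = 0.00023) in DN2 leukemia against LSK leukemia. Of 11 tested hypoxia response genes, 3 rose and 5 fell in DN2 leukemia minus GMP leukemia, when 21.0% of all genes rose and 18.8% fell. In DN2 leukemia minus LSK leukemia 4 rose and 3 fell, beside 28.4% and 19.1% of all genes. Pdk1, which restrains pyruvate oxidation and stands in both lists, rose by 2.54 ± 0.40 (SE, adjusted p = 0.000146) in DN2 leukemia against LSK leukemia, and Vegfa, a growth factor of blood vessels, fell, with a difference of -3.02 ± 0.27 (SE, adjusted p = 8.28e-07).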

How the data were processed

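RNA (300 ng per sample, 3' IVT Express labelling) was hybridised to 17 Affymetrix mouse arrays. The deposited values are log2 expression values, made by the authors with RMA (background correction, quantile normalization and probe summary) in the affy package, per the submitters' processing notes, with versions not given in the sources used here. RMA compresses differences near background. Of 45141 probe sets, 104 controls were left out and 29449 were listed in the annotation, 28898 of them with 1 gene symbol and 551 with several, which were not used. Each gene was represented by its probe set of highest mean over the 17 arrays, giving 17097 genes. Of the 72 members, 37 had 1 probe set and 35 several, and Cox7b, without a probe set of single symbol, was not analysed here.

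Groups were taken from the sample titles. The 17 arrays were fitted together with limma 3.58.1 in R 4.3.3 (lmFit and eBayes, no covariates), and 7 contrasts were tested with Benjamini-Hochberg adjustment over 11625 genes with a group mean above 3.83, the median over the whole table. The fit was tested on simulated data with 200 changed genes. The members and lists were chosen with earlier results of these data known. For each comparison and class, up to 2 called rises and 2 called falls were named, those without overlap of arrays first, with every tissue isoform and its common counterpart, all of complex II, Cycs, up to 4 interaction members and up to 2 called genes per pathway list. The other called members are also named, and these were chosen after their values were seen. Alternatives covered the filter, the choice of probe set, normalization, eBayes settings, the arrays in the fit, a replicate block, 2 pairs of arrays that stand apart and each array left out in turn. Same-numbered arrays did not deviate together (median correlation 0.053 over 25 pairs, against -0.003 over 86 other pairs).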

Additional observations from a re-analysis of the deposited data

Results flagged for a closer look

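In 76 combinations of a named member and a group of 5 arrays, 2 arrays lay far from the other 4, and chance flags about 1 in 20 such groups. Ndufaf5, an assembly factor of complex I, was at 7.1259 in DN2 leukemia array 1, while the other 4 arrays were between 7.592 and 7.7669. Sdha, the flavoprotein of complex II, was at 10.981 in DN2 leukemia array 5, while the other 4 arrays were between 11.262 and 11.3341. In 2 members the leukemia minus healthy difference was not the same for DN2 as for GMP by the interaction term of limma. The interaction of Cox6b2, the testis form of a complex IV subunit, was -3.128. That of Ndufaf5 was 1.3681.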

How the results depend on the processing

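In GMP leukemia minus healthy GMP, 9 were called, and leaving out 1 array gave 0 to 25 (21 without GMP leukemia array 2, 25 without 4, 5 without 5, 0 without either healthy GMP array, with 20 and 7 at an unadjusted p under 0.05). A fit on the arrays of the groups compared gave 0 there (15 unadjusted) and a replicate block 18. The shared numbers did not pair the arrays, and the block moved no other count by over 1.5 times. In LSK leukemia minus GMP leukemia, 15 were called, and leaving out 1 array gave 9 to 29 (9 without LSK leukemia array 2, 29 without GMP leukemia array 1). It was 4 with the groups compared alone and 5 without LSK leukemia arrays 2 and 3. DN2 leukemia minus LSK leukemia gave 8 without that pair and 13 to 19 on leaving out 1 array, in place of 18. DN2 leukemia minus GMP leukemia gave 9 to 14 in place of 11, and DN2 leukemia minus healthy DN2 2 to 3 in place of 3. Healthy DN2 minus healthy GMP gave 46 with the 4 arrays alone, 1 without DN2 leukemia arrays 1 and 3, and 0 to 1 on leaving out 1 array (0 without healthy DN2 array 1 or 2 or healthy GMP array 1, with 7, 11 and 17 unadjusted, and 1 without healthy GMP array 2), in place of 3. The interaction, 2 members, gave 4 with the mean of all probe sets, and 1 without the filter, with the groups compared alone or without either pair. Leaving out 1 array gave 0 to 3, with 1 without DN2 leukemia array 2, 3, 4 or 5 or GMP leukemia array 3 or 5, and 0 without any 1 healthy array, with 4, 5, 6 and 5 unadjusted.

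With probe sets without a suffix only, Ndufa12 reversed to -1.12 (adjusted p = 0.0126) in DN2 leukemia minus LSK leukemia and to 1.39 (adjusted p = 0.00686) in LSK leukemia minus GMP leukemia, since another probe set of low signal then stands for the gene. Of 45 named called differences, 10 were called under every alternative run. Called differences were set against each further probe set of the gene with signal above background, 23 checks in all. The direction was the same in 20. A call with several further probe sets enters more than once, and Ndufa12 stands on both sides. The causes of the other changes were not tested. Genes near background have compressed differences.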
